A study of Rattus norvegicus with 62 samples.

Results

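The change in liver gene expression between the samplings named 5w and 10w after thioacetamide initiation was measured within animals, as the 5 arrays titled 10w TAA/PB against the 5 arrays titled 5w TAA/PB. These 10 arrays were chosen by title out of 62 in the series, and the samples were paired by replicate number because both liver samples of a number came from one animal. The animals were male Crj:CD(SD)IGS rats. Thioacetamide (TAA), a hepatotoxin, was given as initiator at 45 mg/kg for 1 or 2 weeks, followed by 2 weeks without treatment and then 500 ppm of phenobarbital (PB), a liver tumour promoter, in the drinking water. The 5w sample was the liver removed at partial hepatectomy, 1 week into phenobarbital, and the 10w sample was the liver at the end of the study, after 6 weeks of phenobarbital. Every animal of the series had the same surgery. The comparison groups were 4 animals given the vehicle methylcellulose and then phenobarbital (MC/PB), 4 given methylcellulose and plain water (MC/water), and phenobarbital animals whose initiator was diethylnitrosamine at 3 or 30 mg/kg (DEN3/PB, 5 animals, and DEN30/PB, 4), methapyrilene at 100 mg/kg (MP/PB, 5) or acetaminophen at 1000 mg/kg (APAP/PB, 4). MC/PB and these last make up the 5 other phenobarbital groups. The 10w liver differed from the 5w liver by 5 more weeks of phenobarbital, 5 weeks of age, the regrowth after surgery and the occasion of sampling, and these cannot be told apart in TAA/PB alone.

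Thioacetamide is oxidised in the liver by cytochrome P450 and flavin-containing monooxygenases to reactive metabolites that injure hepatocytes around the central vein. In models of staged liver carcinogenesis an initiator is followed by a promoter such as phenobarbital, which activates the nuclear receptor CAR and raises enzymes of drug metabolism. Partial hepatectomy sets off a wave of hepatocyte division that restores liver mass and then ends.

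Liver RNA of 62 samples had been hybridised to Affymetrix rat arrays and the values are MAS5 signals, a brightness per probe set on a linear scale. The arrays of TAA/PB had median signals of 104.97 to 114.43 at 5w and 103.97 to 112.94 at 10w, and the 3′/5′ signal ratio of the Gapdh control, which rises as RNA degrades, was 1.42 to 1.62 and 1.43 to 1.63. The liver label was borne out by Alb, albumin, whose signal was 56127 to 73538 at 5w and 54426 to 79181 at 10w. Changes were tested in limma as differences of log2(signal + 25) within animals, with a spread shared by all 31 animals of the series and Benjamini-Hochberg adjustment over 10910 genes. A gene rose or fell where the adjusted p was under 0.05. Values after ± are standard errors (SE) of the log2 change over 5 animals (over 4 in MC/PB and in MC/water), and the offset of 25 understates the changes of low signals. The first component of the variation left after the groups, 11.84% of it, divided the arrays into 2 sets of unknown origin. It put animals 1 and 3 of TAA/PB in set 1 and animals 2, 4 and 5 in set 2. Both arrays of each of the 31 animals were in one set. The mean of each group at each week had been removed first, so the component could not show an array effect lying between the weeks.

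Between 5w and 10w, 785 of 10910 genes tested (7.2%) changed in TAA/PB, 403 upward (3.69%) and 382 downward (3.5%). The changes were mostly small. Their median size was 0.43 on the log2 scale, and 61 genes (0.559%), 39 up and 22 down, passed the threshold with a change of at least 2-fold. The median over all genes tested was -0.0062. In 636 of the 785 (5.83% of genes tested) all 5 animals moved the same way, and in 228 the 5w and 10w signals did not overlap, against 326 genes (2.99%) without overlap among all tested. In whole liver a lower signal from fewer cells of a type and one from less RNA per cell cannot be told apart. Which genes passed depended on single animals: 450 genes passed without animal 2, 473 without animal 3 and 457 without animal 4, against 856 without animal 1 and 528 without animal 5. Of 147 genes that passed and were followed one by one, 62 passed in each of the 5 fits that left 1 animal out. Further probe sets of Ahr, Canx, Cry2, Elovl5, Gata4 and Reln, genes that passed, changed in the same direction and did not pass, and so did some of genes described below. For Psme1, which rose, a further probe set changed by -0.09 and did not pass. A call that was lost in any of these fits is marked as such where the gene is described.

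Among 39 gene lists of pathways and cell types, heat shock chaperones had the largest share of members that rose, 12 of 20, and male-biased liver genes the largest share that fell, 9 of 22. The lists and their members were chosen with earlier results of these data known, so these shares describe the lists and are no independent test. Targets of the oxidative stress factor NRF2 rose in 7 of 24 tested and fell in 0. No member passed in cholesterol synthesis (20 tested), oxidative phosphorylation (27 tested) or the neutrophil and mast cell markers (6 tested), and 1 of 48 cell cycle genes passed. The same shares over all genes tested were 3.69% up and 3.5% down, 7.2% in all, and each count of list members below is to be read beside them. In several lists the share that passed lay near 7.2%.

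**Figure D1:**
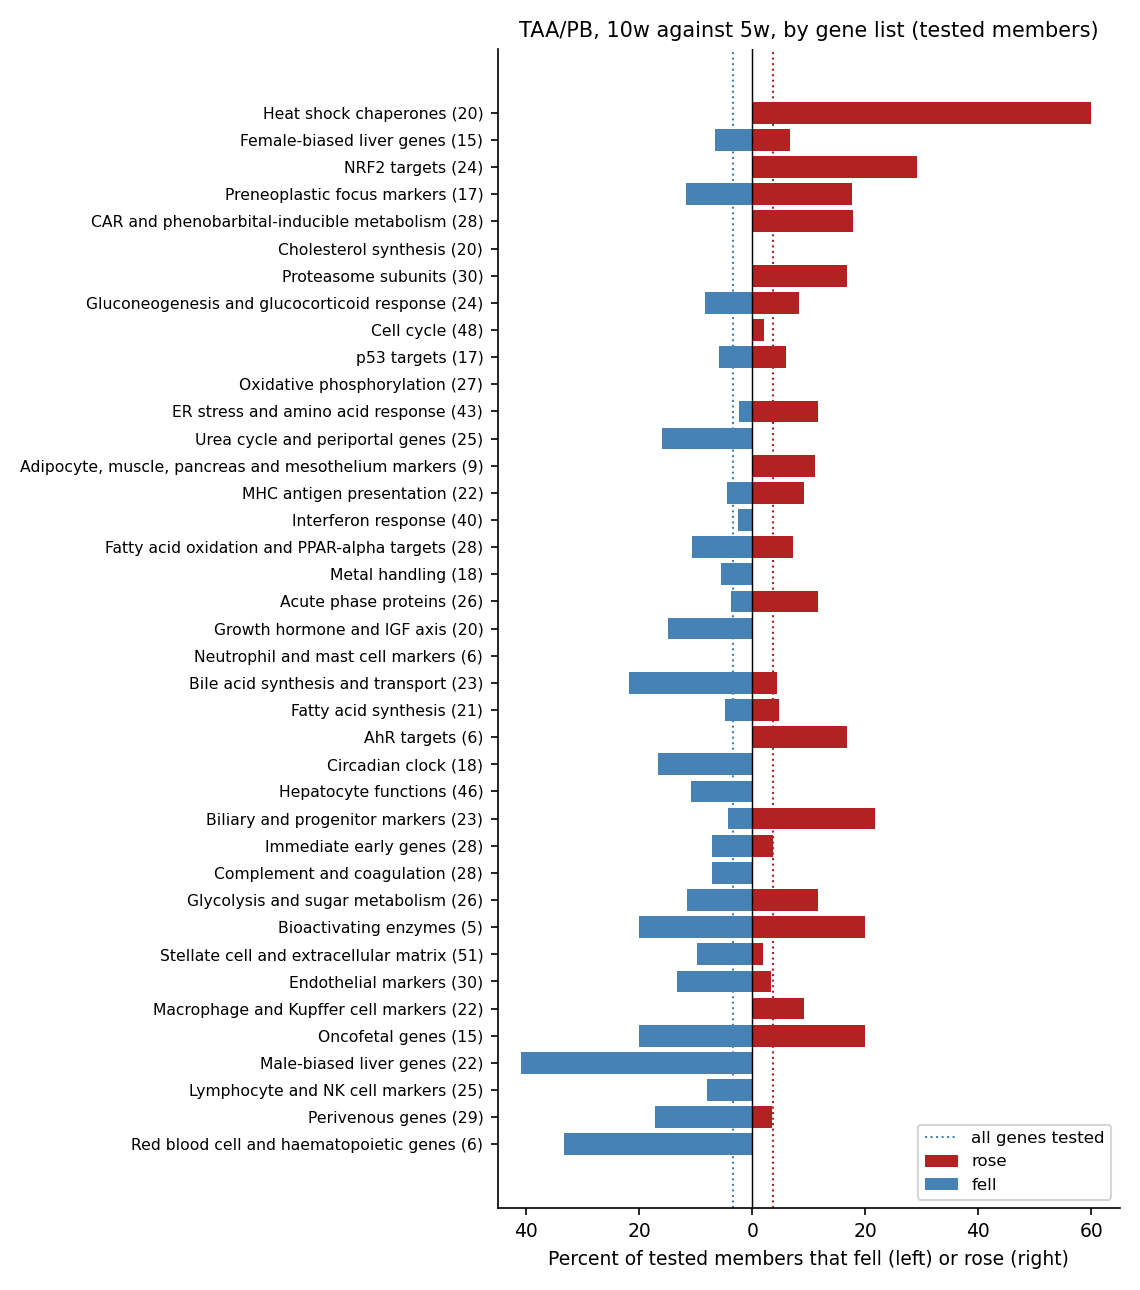
Percent of the tested members of each of 39 gene lists that rose (red, right) or fell (blue, left) between 5w and 10w in TAA/PB at an adjusted p under 0.05, with the number tested in parentheses and the lists ordered by their median change; the dotted lines mark the shares over all genes tested. Heat shock chaperones reach 60% on the right and male-biased liver genes 40.9% on the left, where the lines lie at 3.69% and 3.5%. The lists were chosen with earlier results of these data known.

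The largest group movement was in the heat shock chaperones, proteins that fold or refold other proteins and that the heat shock factor HSF1 induces through heat shock elements in their promoters. All 20 tested members had a positive mean change, 12 rose, none fell, and the median was 0.39 on the log2 scale against -0.0062 over all genes. The summed signal of the list was higher at 10w than at 5w in 5 of 5 animals. The median change of the list was 0.39 in MC/PB too, and 0.18 in MC/water. Leaving out 1 animal gave 7 to 13 members past the threshold, 7 without animal 5 and 8 without animal 4.

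Chordc1, a co-chaperone of HSP90, read 1052, 1560.1, 1240.1, 1135 and 1169 at 5w and 1882, 2815, 2809, 2140.3 and 2347 at 10w in animals 1 to 5. Every 10w signal lay above every 5w signal, and the change was 0.94 ± 0.11 (log2, n = 5, limma adjusted p = 2.32e-06). Hsph1, the HSP110 that recharges HSP70 with ATP, read 1404, 1628, 2205, 1419 and 1322 at 5w and 2723, 2949, 3840.4, 2314 and 3689.8 at 10w. It was higher at 10w in 5 of 5 animals with no overlap and changed by 0.95 ± 0.17 (adjusted p = 0.000394). Dnajb1, an HSP40 that hands clients to HSP70, read 1164, 1256, 1178, 1118 and 1020.4 at 5w and 1757, 1998, 2608, 1672 and 2061 at 10w. Its weeks did not overlap either, with a change of 0.79 ± 0.12 (adjusted p = 8.12e-05), and a second probe set of the gene changed by 0.82. Hspb8, a small heat shock protein, and Bag3, the co-chaperone it works with in chaperone-assisted autophagy, rose by 0.60 ± 0.12 (adjusted p = 0.00182) and 0.45 ± 0.10 (adjusted p = 0.0035), each in 5 of 5 animals and without overlap. Hspb8 read 1739 to 2308 at 5w and 2437 to 3478 at 10w, and Bag3 read 1144 to 1372 at 5w and 1381 to 2261 at 10w.

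Cryab, alpha-B-crystallin, had the largest change among the members that passed. It read 506, 253, 787, 371 and 185 at 5w and 652, 787, 3539.8, 1236 and 646 at 10w, so that animal 3 was the highest at both weeks and animal 1 changed least, and the groups overlapped. Its change was 1.48 ± 0.33 (adjusted p = 0.00431), higher at 10w in 5 of 5 animals. Hsp90ab1, the constitutive cytosolic HSP90, rose by 0.40 ± 0.08 (adjusted p = 0.0023). The 5 other members that rose, Cct3, Hspa4, Ahsa1, Dnajb4 and Stip1, changed by 0.21 to 0.42 and each fell short of the threshold without at least 1 animal. The stress-inducible HSP70, Hspa1a, read 134, 218, 96.2, 177 and 54.6 at 5w and 362, 304, 1429, 162 and 378 at 10w, and its mean change of 1.51 ± 0.66 was large but uneven, with animal 4 lower at 10w (adjusted p = 0.176). Hspb1, a small heat shock protein, read 444, 218, 638, 199 and 68.2 at 5w and 476, 151, 1009.8, 149 and 337 at 10w, with 3 of 5 animals higher at 10w (adjusted p = 0.706).

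**Figure D2:**
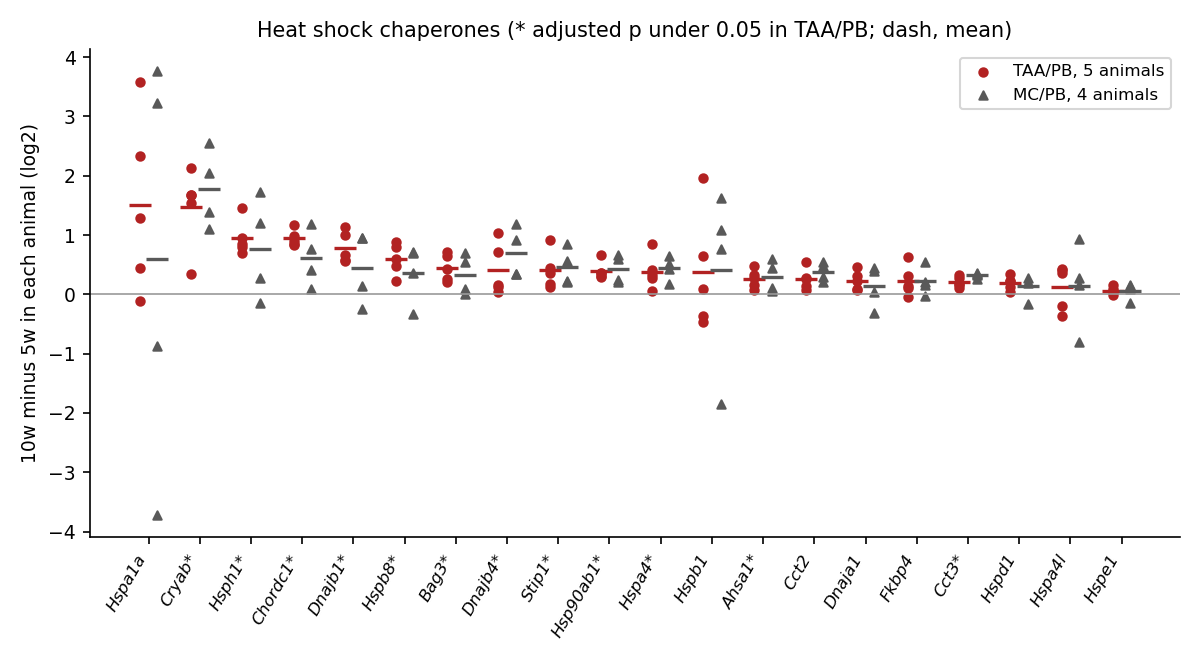
Change between the weeks (10w minus 5w, log2 of signal + 25) of the 20 tested heat shock chaperones in each of 5 TAA/PB animals (red circles) and 4 MC/PB animals (grey triangles); dashes are means and asterisks mark an adjusted p under 0.05 in TAA/PB. Of the members past the threshold all have their 5 TAA/PB animals above 0, and Hspa1a and Hspb1 have animals on both sides of 0 in both treatments.

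Because the members moved together, their promoters were searched for heat shock elements, runs of inverted GAA units. The 250 bases before the start were available for 18 of the 20 tested members (RefSeq, build GRCr8). A run of 3 units, alternately inverted and each 2 bases apart, was found in 3 of these 18 and in 0.663% of all 33469 promoters. In 2 of the 3, Hspd1 and Hspe1, it is one and the same stretch, since their windows overlap, and the counts below hold it for both genes. The shorter run of 2 units, GAANNTTC or TTCNNGAA, which each longer run contains, was found in 10 of 18 and in 13.5% of all promoters. Of the members that rose, 5 of 10 held the shorter run, as did 5 of the 8 that did not pass. The 3-unit run was in 1 of these 10 and in 2 of these 8. Among the members that rose, Chordc1, Hsp90ab1, Hspa4, Ahsa1 and Cct3 held neither run. Each pair of letters covers both strands. The promoters shown 5′ to 3′ toward the gene are examples picked from the members that rose and hold a run. They are Hsph1 (chr12:10427118-10427367 on the plus strand), Dnajb1 (chr19:41431142-41431391 on the minus strand) and Bag3 (chr1:192533210-192533459 on the plus strand). Capitals mark the 3-unit run in Hsph1 and the 2-unit run in the others.
Hsph1: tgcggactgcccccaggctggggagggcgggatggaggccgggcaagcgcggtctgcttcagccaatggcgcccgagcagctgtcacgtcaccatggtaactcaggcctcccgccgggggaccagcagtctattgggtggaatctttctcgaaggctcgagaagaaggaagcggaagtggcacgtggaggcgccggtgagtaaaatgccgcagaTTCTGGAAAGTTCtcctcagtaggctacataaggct
Dnajb1: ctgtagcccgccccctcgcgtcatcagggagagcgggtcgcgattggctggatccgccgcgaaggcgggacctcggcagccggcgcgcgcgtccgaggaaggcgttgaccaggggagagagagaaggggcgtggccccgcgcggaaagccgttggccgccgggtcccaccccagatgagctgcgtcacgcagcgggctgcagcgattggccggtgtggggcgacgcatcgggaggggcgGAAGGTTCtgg
Bag3: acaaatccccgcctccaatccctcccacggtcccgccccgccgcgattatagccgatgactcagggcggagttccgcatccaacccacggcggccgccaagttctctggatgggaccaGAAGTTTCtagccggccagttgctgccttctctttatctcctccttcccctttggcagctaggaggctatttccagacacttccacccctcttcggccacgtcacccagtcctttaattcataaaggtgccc
A match is a description of these letters and was not tested as a site of binding.

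Of 43 tested genes of the endoplasmic reticulum stress and amino acid response, 5 rose and 1 fell, with a median of 0.03, and 2 rose without animal 5 and 3 without animal 4. Herpud1, which helps to degrade misfolded proteins of the endoplasmic reticulum, read 2834, 3020.2, 1932, 2615 and 2982 at 5w and 6792, 4729, 5482, 3674 and 5367 at 10w, with no overlap, and rose by 0.94 ± 0.14 (adjusted p = 4.89e-05). Dnajb9, a co-chaperone of BiP, rose by 0.57 ± 0.12 (adjusted p = 0.0024), reading 2724 to 3397 at 5w and 3689.7 to 5308 at 10w, also without overlap. The calnexin gene Canx, the amino acid transporter subunit Slc3a2 and Hsp90b1 rose by 0.16 to 0.29 and did not pass without some animals. The glutathione-degrading enzyme gene Chac1 fell by 0.58 on the log2 scale in 5 of 5 animals, and fell short of the threshold without animal 2, 3, 4 or 5 (adjusted p from 0.029 to 0.192 over the 5 fits). Of 30 proteasome subunits, 29 had a positive mean change and 5 rose, by 0.18 to 0.32. Psmd8, of the regulatory particle, read 3724 to 4893 at 5w and 4559.5 to 5347 at 10w and rose by 0.32 ± 0.07 (adjusted p = 0.00532), and it was the one of these 5 that passed in all leave-one-out fits. Without animal 3, 4 or 5 the number that rose was 2.

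Phenobarbital-inducible enzymes of drug metabolism rose where they changed. Of 28 genes inducible by CAR or phenobarbital, 5 rose and 0 fell, with a median of 0.14, and 21 of the 28 had a positive mean change. The median of the list was 0.25 in MC/PB, where 9 passed, and 0.01 in MC/water. Gstm3, a glutathione S-transferase, read 991, 832, 1929, 624 and 460.1 at 5w and 1917, 2756, 4468, 2526 and 1598 at 10w. The weeks overlapped because of the high 5w signal of animal 3, yet every animal was higher at 10w, and the change was 1.51 ± 0.19 (adjusted p = 5.92e-06). Gsta3, another glutathione S-transferase, read 1888, 2197, 3052, 2709.7 and 3889.9 at 5w and 2166, 5218, 6353, 9092 and 7223 at 10w, a small rise in animal 1 and larger ones in the others, with a change of 1.02 ± 0.20 (adjusted p = 0.00174). Alas1, the rate-limiting enzyme of haem synthesis that phenobarbital induces, read 5807, 4229.8, 8626, 5719 and 4563 at 5w and 6719.9, 7702, 12438, 10891 and 10248 at 10w and rose by 0.74 ± 0.12 (adjusted p = 0.000186), again least in animal 1. Cyp2a1, a testosterone hydroxylase, rose by 0.78 ± 0.15 (adjusted p = 0.00114) with no overlap, reading 5203 to 6568 at 5w and 8034 to 14614 at 10w; a probe set shared by Cyp2a1 and Cyp2a2 rose by 0.33. Abcc3, which exports conjugates from hepatocytes, rose by 0.75 ± 0.18, and fell short without animal 2 or 4 (adjusted p from 0.00987 to 0.0773 over the 5 fits).

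NRF2 targets, genes of antioxidant and conjugating enzymes, rose in 7 of 24 members and had a median of 0.29, with 23 of the 24 above 0. Their median was 0.38 in MC/PB, where 9 passed, and -0.0065 in MC/water. In TAA/PB their summed signal was higher at 10w in 5 of 5 animals. Nqo1, a quinone reductase, read 6155, 5645, 8536, 6626 and 6784 at 5w and 6958, 7563, 12926, 13120 and 11602 at 10w, and every animal rose, for a change of 0.59 ± 0.09 (adjusted p = 0.00011). Gsr, glutathione reductase, rose by 0.47 ± 0.10 (adjusted p = 0.0024) and Akr7a3, an aldehyde reductase, by 0.70 ± 0.15 (adjusted p = 0.00359), both in 5 of 5 animals and both with overlap. The thioredoxin reductase gene Txnrd1 rose by 0.59 ± 0.14, and fell short without animal 4 (adjusted p from 0.00438 to 0.0744 over the 5 fits). Cbr1, Ugdh and Mgst2, the other members that rose, each fell short without 3 of the animals. The number that rose was 4 without animal 2, 3 without animal 4 and 11 without animal 1.

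Among 5 enzymes that bioactivate the study's initiators, Fmo5 rose and Cyp2f4 fell. Fmo5, a flavin-containing monooxygenase, read 5430.5, 4588, 2447, 3201 and 5545 at 5w and 9821, 11488, 8538, 7112 and 11373 at 10w. All 10w signals exceeded all 5w signals, and the change was 1.23 ± 0.10 (adjusted p = 7.14e-09). The change of Fmo5 was 0.45 ± 0.12 in MC/PB and 0.99 ± 0.12 in MC/water, and the difference between TAA/PB and MC/PB was 0.78 ± 0.16 (adjusted p = 0.0823), which did not pass. Cyp2f4 fell by 0.20 on the log2 scale in 5 of 5 animals, and fell short without animal 2, 3, 4 or 5 (adjusted p from 0.0465 to 0.24 over the 5 fits). Cyp2e1, the P450 best known for oxidising thioacetamide, read 27944 to 41255 at 5w and 24961 to 46632 at 10w with a change of 0.13 ± 0.07 (adjusted p = 0.301), and Fmo1 changed by -0.13 ± 0.19 (adjusted p = 0.761). Of 6 tested targets of the aryl hydrocarbon receptor, the receptor gene Ahr itself, listed among them, was the member that rose, by 0.49 ± 0.14, and it fell short without animal 2, 4 or 5 (adjusted p from 0.0223 to 0.176 over the 5 fits).

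Genes of fat handling moved in both directions. Of 28 tested genes of fatty acid oxidation and PPAR-alpha, 2 rose and 3 fell, with a median of -0.01, and 0 fell without animal 3 or 4. Cyp4a8, a fatty acid omega-hydroxylase, read 586, 582, 841, 463 and 607 at 5w and 1355, 2590.0, 4572, 2163 and 2255 at 10w. It was the gene with the largest rise of all, 1.94 ± 0.26 (adjusted p = 1.47e-05), with no overlap, and it rose in MC/PB (2.33 ± 0.29) and in MC/water (1.86 ± 0.29) too. Cd36, which takes up fatty acids, read 398, 335, 419, 469.9 and 403 at 5w and 730.3, 781, 1164, 1211 and 889.8 at 10w and rose by 1.17 ± 0.16 (adjusted p = 2.55e-05) without overlap. The 3 that fell, by 0.36 to 0.83 on the log2 scale, were Pdk4, which restrains pyruvate oxidation, the lipid droplet coat gene Plin2 and the mitochondrial carrier gene Ucp2, and each fell short without 3 or more of the animals. A second Plin2 probe set changed by -0.10 and did not pass.

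Lpl, lipoprotein lipase, which releases fatty acids from circulating lipoproteins, read 1267, 1587, 2510.1, 2306 and 706 at 5w and 3945, 4769.9, 3610.2, 6383 and 2075 at 10w. It rose in 5 of 5 animals, with overlap, by 1.34 ± 0.17 (adjusted p = 8.31e-06). In MC/PB its change was 2.50 ± 0.19 and in MC/water 0.11 ± 0.19, and the difference between TAA/PB and MC/PB did not pass (-1.16 ± 0.26, adjusted p = 0.179). In fatty acid synthesis 1 gene rose and 1 fell of 21 (9.52% passed, against 7.2% of all genes tested). Acacb, the mitochondrial acetyl-CoA carboxylase whose product holds back fatty acid oxidation, read 69.6, 114, 34.9, 52.8 and 83.8 at 5w and 248, 222, 154, 161 and 186 at 10w and rose by 1.23 ± 0.20 (adjusted p = 0.000186) without overlap. The fatty acid elongase gene Elovl5 fell by 0.27 on the log2 scale, and fell short without animal 2, 3 or 4 (adjusted p from 0.0132 to 0.102 over the 5 fits).

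Sugar metabolism changed in 3 genes upward and 3 downward of 26. Pfkfb1, which sets the level of fructose 2,6-bisphosphate, read 1295, 1758, 1731, 1505 and 1398 at 5w and 2809, 2318, 1933, 2278 and 2889.6 at 10w and rose by 0.66 ± 0.13 (adjusted p = 0.00176), with the weeks apart. Aldoa and Pgam1 rose by 0.27 and 0.24, and Slc16a1, Khk and Ldha fell by 0.23 to 0.33 on the log2 scale; each of these 5 fell short without at least 1 animal. Of 24 genes of gluconeogenesis and glucocorticoid response, 2 rose and 2 fell. Klf9, a transcription factor induced by glucocorticoids, read 1261, 2325, 1155, 2681 and 2466 at 5w and 2918, 5339.9, 2426, 3478 and 3743 at 10w and rose by 0.88 ± 0.13 in 5 of 5 animals (adjusted p = 5.25e-05). Tsc22d3, the glucocorticoid-induced leucine zipper, rose by 0.56 ± 0.14 without overlap, and fell short without animal 4 (adjusted p from 0.0186 to 0.0528 over the 5 fits). Sgk1, a kinase that glucocorticoids also induce, went the other way. It read 2539, 2441, 6393, 4159 and 2326 at 5w and 1174, 906, 1942, 892 and 1934 at 10w, every 10w signal below every 5w signal, and changed by -1.33 ± 0.25 (adjusted p = 0.00105). Dusp1, a phosphatase that switches off MAP kinases, fell by 1.24 on the log2 scale in 5 of 5 animals but by little in animals 1 and 3, and it fell short without animal 2, 4 or 5 (adjusted p from 0.0201 to 0.172 over the 5 fits). A second Dusp1 probe set changed by -0.85 and did not pass.

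Of 18 circadian clock genes 3 fell and 0 rose. Cry1, a repressor of the clock, read 512, 906, 693, 620.0 and 797 at 5w and 421, 501, 318, 298 and 738 at 10w and fell by 0.65 on the log2 scale in 5 of 5 animals, with overlap (adjusted p = 0.00301). Hlf, an output factor of the clock, fell by 0.46 on the log2 scale (adjusted p = 0.0049), while 1 of its 2 other probe sets did not pass (-0.30, adjusted p = 0.271). Cry2 fell by 0.38 and fell short without animal 1, 2 or 3 (adjusted p from 0.0389 to 0.0886 over the 5 fits). Dbp and Per2, whose levels follow the hour of sampling, changed by -0.06 ± 0.32 (adjusted p = 0.946) and -0.25 ± 0.15 (adjusted p = 0.376), and Nr1d1 by 0.77 ± 0.25 (adjusted p = 0.0588). The hour of sampling is not given in the sources used here, and its part in these changes was not tested.

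The 2 largest falls among the genes that passed, Pbsn and Stac3, were of male-biased liver genes, which are set by the male pattern of growth hormone and by androgens. Of 22 tested, 9 fell and 0 rose, and the median was -0.16, against -0.15 in MC/PB and -0.11 in MC/water. Without animal 2 or without animal 5 the number that fell was 6. The main male-specific P450 gene Cyp2c11 read 42963 to 47746 at 5w and 41817 to 48426 at 10w and changed by -0.03 ± 0.08 (adjusted p = 0.898), and Cyp3a2 changed by -0.07 ± 0.08 (adjusted p = 0.673), so the fall did not extend to every male-biased gene.

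Pbsn, probasin, a lipocalin known as an androgen-regulated secretory protein of the rat prostate, had the largest change of any gene. It read 602, 2553, 2861, 1696 and 437 at 5w and 26.8, 48.9, 321, 151 and 32.8 at 10w in animals 1 to 5. All 5w signals lay above all 10w signals, 3 of the 5 animals were under 100 at 10w, and the change was -3.61 ± 0.41 (log2, n = 5, limma adjusted p = 9.78e-07). In MC/PB and MC/water no array reached 100 at either week. The highest of the 8 MC/PB signals was 38.0 and the highest of the 8 MC/water signals was 43.9. DEN3/PB had a median of 221.5 at 5w and 70.4 at 10w, with 4 of 5 arrays at or above 100 at 5w. Every DEN3/PB animal was lower at 10w, and the one with the highest signal went from 1215.5 to 254. DEN30/PB had medians of 93.2 and 79.9. In MP/PB and APAP/PB 1 array each reached 100, at 5w in both. At 10w the TAA/PB signals of 26.8 to 321 overlapped those of MC/PB, 8.78 to 38.0.

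**Figure D3:**
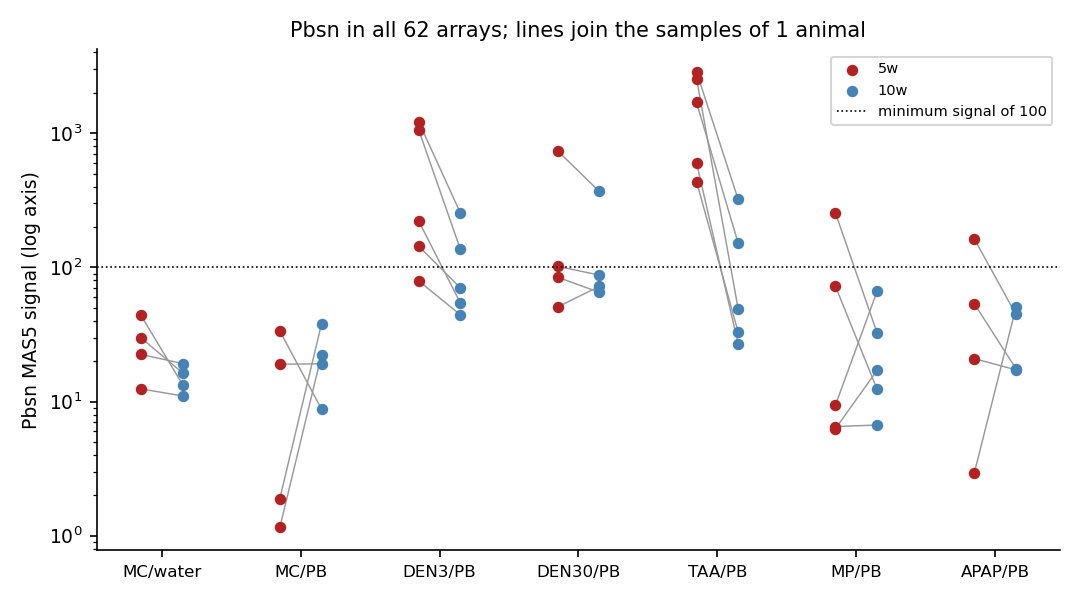
MAS5 signal of Pbsn on a log axis in all 62 arrays by treatment, at 5w (red) and 10w (blue), with grey lines joining the 2 samples of 1 animal and a dotted line at the minimum signal of 100. The 5 TAA/PB arrays at 5w, from 437 to 2861, are above 100, all 16 arrays of MC/water and MC/PB are below it, and signals under 100 have a wide spread on this axis.

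Pbsn was the gene on which the comparison between treatments turned. Its change in TAA/PB minus that in MC/PB was -3.94 ± 0.61 (adjusted p = 0.00389), and minus the mean of the 5 other phenobarbital groups -3.18 ± 0.45 (adjusted p = 0.000722). The first difference fell short without MC/PB animal 3 (adjusted p = 0.0622, and 0.00293 to 0.0459 in the other leave-one-out fits). With no offset before the log2 step the differences were -5.78 (adjusted p = 0.0846) and -3.998 (adjusted p = 0.259), with MC/PB signals as low as 1.15 entering the first. The 250 bases before the start of Pbsn (RefSeq, GRCr8, chrX:45807984-45808233 on the minus strand), shown because the gene stands alone in this comparison and is known for androgen receptor sites there, hold the steroid receptor half-site TGTTCT, in capitals.
Pbsn: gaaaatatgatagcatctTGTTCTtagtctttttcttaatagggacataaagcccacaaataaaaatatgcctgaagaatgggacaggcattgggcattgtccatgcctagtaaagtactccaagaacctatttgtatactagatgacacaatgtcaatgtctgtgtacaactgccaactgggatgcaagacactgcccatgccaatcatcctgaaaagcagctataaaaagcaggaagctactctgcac
The half-site, TGTTCT or its reverse complement AGAACA, is in 17.5% of the 33469 promoters. Of the male-biased list, 4 of the 8 members that fell and had a promoter entry hold it, and 4 of the 10 with an entry that did not pass.

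Stac3, best known as an adaptor of muscle excitation, read 8523, 9859.8, 8780.0, 11962 and 10544 at 5w and 7324, 1504, 1956, 2366 and 3579 at 10w. Animals 2 to 5 lost most of the signal and animal 1 little, though the weeks did not overlap, and the change was -1.79 ± 0.36 (adjusted p = 0.00178). Hao2, a peroxisomal hydroxyacid oxidase, read 19486, 22843, 23658, 24368 and 20451 at 5w and 17357, 12518, 15286, 13456 and 11130 at 10w and changed by -0.68 ± 0.11 (adjusted p = 0.00011), again least in animal 1. Rgn, regucalcin, a calcium-binding lactonase, read 24788, 21659, 20044, 21927 and 18721 at 5w and 21949, 10635, 14803, 15438 and 15298 at 10w and changed by -0.49 ± 0.10 (adjusted p = 0.00141) in 5 of 5 animals. Obp3, a lipocalin of the alpha-2u-globulin family, read 24145, 32761, 30899, 23157 and 21449 at 5w and 21322, 6799, 23482, 19521 and 3981 at 10w. Its fall was concentrated in animals 2 and 5, and the change of -1.10 ± 0.27 (adjusted p = 0.00877) fell short without animal 2 or 5 (adjusted p from 0.00335 to 0.0995 over the 5 fits). Probe sets of this family may share transcripts, and the probe sets of Mup5, a related gene, disagreed in size. The brightest changed by -0.28 ± 0.10 (adjusted p = 0.0705) and did not pass, while 2 others changed by -1.26 (adjusted p = 0.000726) and -1.07 (adjusted p = 0.000865), so that whether Mup5 counts among the members that fell depends on the probe set.

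Car3, carbonic anhydrase 3, abundant in male liver, read 51846, 47604, 43468, 52060 and 48745 at 5w and 42327, 13964, 18657, 29497 and 16472 at 10w. The weeks did not overlap, but animal 1 again changed least, and the change of -1.13 ± 0.31 fell short without animal 2, 3 or 5 (adjusted p from 0.0124 to 0.11 over the 5 fits); a second probe set changed by -2.05. Ust5r, an organic anion transporter gene, fell by 0.49 on the log2 scale in 4 of 5 animals (adjusted p = 0.00332), while a probe set shared with UST4r rose by 0.72, so its direction is uncertain. Cyp4f1 fell by 0.24 on the log2 scale (adjusted p = 0.00509). Slco1a1, an organic anion uptake carrier, fell by 0.20, and fell short without animal 2, 3 or 5 (adjusted p from 0.0222 to 0.131 over the 5 fits).

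**Figure D4:**
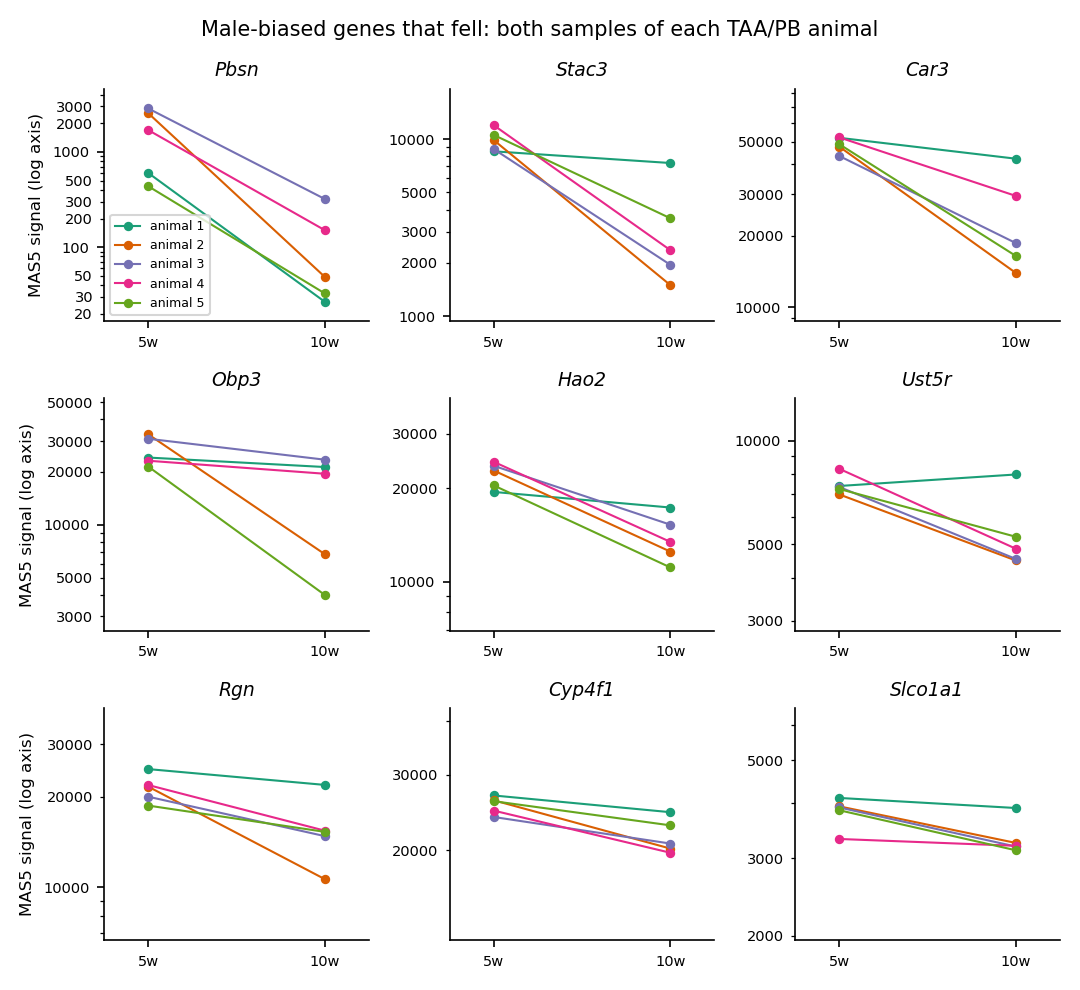
MAS5 signals, on a log axis for each gene, of the 9 members of the male-biased list that fell, with a line from the 5w to the 10w sample of each of the 5 TAA/PB animals. Animal 1 has the flattest line for Stac3, Car3 and Hao2 and rises for Ust5r, and for Obp3 animals 2 and 5 fall far below the others.

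Most female-biased genes had a positive mean change, but few passed. Of 15 tested, 11 were above 0 with a median of 0.36, 1 rose, Cyp2a1, and 1 fell, Cyp2c12. Cyp2c12, the female-specific steroid sulfate hydroxylase, read 7292, 2241, 5546, 9248 and 18221 at 5w and 1754, 2956, 819, 2896 and 3649 at 10w, falling in 4 of 5 animals, and its change of -1.67 ± 0.39 (adjusted p = 0.00718) fell short without animal 3 (adjusted p from 0.00112 to 0.0616 over the 5 fits). Of 20 genes of the growth hormone and IGF axis 3 fell and 0 rose. Igfbp3, the main carrier of IGF1 in blood, read 3077, 2656, 2902, 3275 and 2773 at 5w and 1971, 1587, 1652, 2089.7 and 2485 at 10w, with no overlap, and changed by -0.59 ± 0.11 (adjusted p = 0.000878). Stat5b, which carries the growth hormone signal, and Igfals each fell by 0.36 on the log2 scale. Stat5b fell short without animal 3, 4 or 5 (adjusted p from 0.022 to 0.171 over the 5 fits) and Igfals without animal 2 or 4 (adjusted p from 0.000835 to 0.172 over the 5 fits).

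Most hepatocyte genes had small negative mean changes, and few passed. Of 46 hepatocyte genes 41 had a negative mean change, 5 fell and 0 rose (10.9% passed, against 7.2% of all genes tested), and the median was -0.08. The 5, Foxa3, Asgr1, C8a, Gnmt and Apoa4, fell by 0.20 to 0.74 on the log2 scale and none passed in all 5 leave-one-out fits. The number was 1 without animal 2, 3 or 5 and 0 without animal 4. Bile acid synthesis and transport had 5 members that fell and 1 that rose of 23, but 1 fell without animal 3 and 3 without animal 2, 4 or 5. Amacr, a racemase of branched fatty acids and bile acid precursors, read 16155, 8523, 12620, 13783 and 19793 at 5w and 15535, 4740.5, 8527, 8080.4 and 9629.8 at 10w and changed by -0.65 ± 0.10 (adjusted p = 9.67e-05), hardly at all in animal 1. Slc10a1, which takes bile acids up from blood, fell by 0.28 on the log2 scale in 5 of 5 animals, and fell short without animal 3 (adjusted p from 0.00335 to 0.0608 over the 5 fits). Cyp7a1, the rate-limiting enzyme of bile acid synthesis, read 876 to 2037 at 5w and 697 to 2523 at 10w, with a change of -0.41 ± 0.53 (adjusted p = 0.725).

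Of 29 perivenous genes, those expressed around the central vein, 5 fell and 1 rose, with a median of -0.19, and 3 fell without animal 2 or 5. Fabp7, a fatty acid binding protein, read 5734, 6346, 5154, 6152 and 6970.2 at 5w and 3285, 2784, 1183, 3155 and 2012 at 10w, without overlap, and changed by -1.36 ± 0.17 (adjusted p = 7.79e-06). Gulo, the last enzyme of vitamin C synthesis, fell by 0.37 on the log2 scale in 5 of 5 animals (adjusted p = 0.00386). Glul, glutamine synthetase of the innermost perivenous cells, fell by 0.53 in 4 of 5 animals, and fell short without animal 1, 2 or 5 (adjusted p from 0.00255 to 0.104 over the 5 fits). Rgn and Car3, both also in the male-biased list, were the other perivenous members that fell. Of 25 periportal genes 4 fell and 0 rose, but 1 fell without animal 2, 3 or 4 and 2 without animal 5. Hal, which begins histidine breakdown, read 5634, 5246, 4586, 4980.4 and 5156 at 5w and 4463, 2497, 2383, 1826 and 2957 at 10w, without overlap, and changed by -0.91 ± 0.21 (adjusted p = 0.00518).

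Acute phase genes changed in single members, 3 up and 1 down of 26. A2m, alpha-2-macroglobulin, a classic acute phase protein of the rat, read 1427, 91.9, 959, 157 and 602 at 5w and 676, 9.65, 145, 70.5 and 219 at 10w. Animals differed widely from each other, yet each was lower at 10w, and the change was -1.53 ± 0.20 (adjusted p = 8.31e-06); MC/PB and MC/water changed by -1.54 ± 0.22 and -1.12 ± 0.22. Cd14, the lipopolysaccharide co-receptor, read 2486, 3467, 3269, 2572 and 2869.6 at 5w and 4508, 6609.6, 4802, 5267 and 4385 at 10w and rose by 0.79 ± 0.12 (adjusted p = 9.49e-05) without overlap. Il6r, the interleukin 6 receptor, read 1337, 1164, 1086, 975 and 1271 at 5w and 2538, 2232, 1362, 1481 and 2094 at 10w and rose by 0.69 ± 0.13 (adjusted p = 0.000676), also without overlap. Lbp, which delivers lipopolysaccharide to CD14, rose by 0.57 ± 0.16, and fell short without animal 2, 3 or 4 (adjusted p from 0.00354 to 0.189 over the 5 fits). Of 40 interferon response genes 0 rose and 1 fell (2.5% passed, against 7.2% of all genes tested), with 3 that fell without animal 3 and 0 without animal 2 or 4. Of 28 complement and coagulation genes 0 rose and 2 fell (7.14% passed, near the share of all genes), with 4 that fell without animal 1 and 0 without animal 2, 3 or 4.

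Stellate cell and extracellular matrix genes went down where they changed, with 1 exception. Of 51 tested, 5 fell and 1 rose, 37 had a negative mean change, and the median was -0.13. Without animal 2 the number that fell was 2, and without animal 3 it was 3. Dcn, decorin, a small proteoglycan of the matrix, read 885, 929, 645, 684 and 912 at 5w and 247, 309, 285, 267 and 570.4 at 10w, every 10w signal below every 5w signal, and changed by -1.26 ± 0.18 (adjusted p = 2.94e-05). Mgp, matrix Gla protein, fell by 0.74 on the log2 scale without overlap, and fell short without animal 2 (adjusted p from 0.0073 to 0.0969 over the 5 fits). Lum, lumican, and Reln, reelin, fell and each fell short without 3 or more animals. Igfbp3 was the fifth. The fibrillar collagen genes Col1a1 and Col1a2 changed by -0.54 ± 0.20 (adjusted p = 0.109) and -0.37 ± 0.17 (adjusted p = 0.211). Ccn2, connective tissue growth factor, was the member that rose. It read 283, 200.3, 166, 237 and 169.9 at 5w and 583, 905, 806, 357 and 576 at 10w, with the weeks apart, and changed by 1.46 ± 0.24 (adjusted p = 0.000161), as it did in MC/PB (1.64 ± 0.27) and MC/water (1.14 ± 0.27).

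Of 30 endothelial markers 4 fell and 1 rose, with 2 that fell without animal 2. Kdr, the main VEGF receptor of endothelium, read 3703, 3879, 3502, 3356 and 4038 at 5w and 2541, 2289, 2821, 3046 and 2881 at 10w, without overlap, and changed by -0.45 ± 0.07 (adjusted p = 0.000109), while a second Kdr probe set changed by 0.25 and did not pass. Stab2, a scavenger receptor of the sinusoids, fell by 0.43 on the log2 scale without overlap, and fell short without animal 2 (adjusted p from 0.0094 to 0.0744 over the 5 fits). Among macrophage markers Cd14 and Lgals3 rose of 22 (9.09% passed, against 7.2% of all genes tested), and 16 of the 22 had a negative mean change. Lgals3, galectin 3, read 977, 1061, 867, 1021 and 993 at 5w and 1165, 2097, 1620.4, 1784 and 2112 at 10w, without overlap, and changed by 0.79 ± 0.16 (adjusted p = 0.00141). The macrophage marker Cd68 changed by -0.34 ± 0.13 (adjusted p = 0.112). Of 25 lymphocyte markers 2 fell and 0 rose (8% passed, near the share of all genes). Their summed signal was lower at 10w in 5 of 5 animals, from 4150 to 5945 at 5w to 3465 to 4392 at 10w. Cd7 was one of the 2, at -0.54 ± 0.12 (adjusted p = 0.00561).

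Of 23 biliary and progenitor markers 5 rose and 1 fell, with a median of -0.08, and 3 rose without animal 2. The members that rose included keratins that hepatocytes express as well. Krt18 read 6046, 5799, 4324, 5728 and 5474 at 5w and 6639, 8950.1, 10619, 8517 and 8097 at 10w, without overlap, and changed by 0.64 ± 0.11 (adjusted p = 0.000323), and its partner Krt8 by 0.59 ± 0.13 (adjusted p = 0.0045). Sox4, a transcription factor of progenitor cells, read 948, 738, 825, 795 and 636 at 5w and 711, 2321, 2766, 1962 and 1216 at 10w. It rose in 4 animals and was lower at 10w in animal 1, with a change of 1.02 ± 0.21 (adjusted p = 0.00248), and 3 other probe sets changed by 0.63 to 0.93, the smallest of which did not pass. Anxa5, an annexin, was also lower in animal 1 and higher in the other 4, with 1422, 1093, 1310.1, 1474 and 934 at 5w and 1167, 2872, 2532, 3384 and 2163 at 10w, and its change of 0.88 ± 0.21 fell short without animal 2 (adjusted p from 0.00037 to 0.0562 over the 5 fits). The bile duct keratin Krt19 changed by 0.19 ± 0.25 (adjusted p = 0.733) and Spp1, osteopontin, by -0.43 ± 0.20 (adjusted p = 0.219).

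Of 6 red blood cell and haematopoietic genes 2 fell and 0 rose. Hbb, beta-globin, read 21996, 23769, 14460, 31068 and 20016 at 5w and 11103, 11058, 12312, 7397 and 13694 at 10w, and Alas2, the erythroid enzyme of haem synthesis, read 609, 571, 500.0, 707 and 483 at 5w and 219, 341, 327, 224 and 307 at 10w. Neither overlapped between the weeks. The changes were -0.99 ± 0.23 (adjusted p = 0.00649) and -0.96 ± 0.21 (adjusted p = 0.00379), Hbb falling short without animal 4 (adjusted p from 0.00495 to 0.0809 over the 5 fits). The summed signal of the 6 tested members was 23210 to 35727 at 5w and 14034 to 22508 at 10w, lower in 5 of 5 animals. Hbb weighs heavily in this sum, which is therefore little evidence beyond Hbb itself. Probe sets shared by several globin genes were outside the list, and those that passed in the fit over all probe sets all fell. Those of Hba-a1 and Hba-a2 changed by -0.94 to -1.115, and those of Hbbl1 and Hbb-bs by -1.25 and -1.345. The median change of the 6 was -0.21, with 2 positive and 4 negative. The part of blood in the sample in other changes was not tested.

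Of 48 cell cycle genes (2.08% passed, against 7.2% of all genes tested) Ccnd1, cyclin D1, was the one that rose. It read 988, 651, 759.7, 1161 and 901 at 5w and 1625, 1611, 1385, 1879 and 908 at 10w, and its change of 0.70 ± 0.18 fell short without animal 2 or 3 (adjusted p from 0.00772 to 0.116 over the 5 fits). Other Ccnd1 probe sets changed by 0.66 (limma adjusted p = 0.009) and 0.41 (adjusted p = 0.278), and the last did not pass. Mki67 changed by -0.19 ± 0.31 (adjusted p = 0.793), Top2a by 0.38 ± 0.24 (adjusted p = 0.398) and Cdk1 by 0.31 ± 0.31 (adjusted p = 0.631), none with a signal above 447 in TAA/PB. Of 17 p53 targets 1 rose, Tp53inp1, and 1 fell, Plk2 (11.8% passed), neither of which passed in all 5 leave-one-out fits. Cdkn1a, p21, changed by 0.16 ± 0.12 (adjusted p = 0.51). Gstp1, the placental glutathione S-transferase that marks preneoplastic foci in rat liver, read 1321, 975, 1213, 849 and 904 at 5w and 1131, 1584, 1117, 1101 and 745 at 10w and changed by 0.09 ± 0.17 (adjusted p = 0.822). Ggt1, another focus marker, changed by 0.47 ± 0.26 (adjusted p = 0.296) and Afp, alpha-fetoprotein, by -0.09 ± 0.10 (adjusted p = 0.656). Of 17 focus markers 3 rose and 2 fell (29.4% passed), with 5 that rose without animal 1 and 1 that fell without animal 2 or 3. Nqo1, Akr7a3 and Ddit4l rose, and Ddit4l, an inhibitor of mTOR signalling, fell short without animal 2, 3, 4 or 5 (adjusted p from 0.00713 to 0.219 over the 5 fits). Car3 and Aldh1a3 fell, Aldh1a3, a retinaldehyde dehydrogenase, by 0.49 on the log2 scale (adjusted p = 0.00515). Of 15 oncofetal genes 3 rose and 3 fell (40% passed), with 1 that rose and 1 that fell without animal 4. Among them was Igf2bp3, an RNA-binding protein of fetal tissue, which fell. It read 935, 491, 1202, 1359 and 1101 at 5w and 662, 212, 776, 865 and 814 at 10w and changed by -0.66 ± 0.10 (adjusted p = 5e-05). Its other probe sets changed by -0.57 (adjusted p = 0.0341) and -0.28 (adjusted p = 0.158), and the last did not pass.

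Several of the largest changes lay outside the lists. Tpd52l1, a relative of the tumour protein D52, read 101, 66.4, 159, 61.7 and 114 at 5w and 351, 308, 524, 504 and 465 at 10w, without overlap, and rose by 1.89 ± 0.20 (adjusted p = 3.4e-07). Sema3c, a secreted semaphorin, read 62.2, 96.7, 212, 273 and 117 at 5w and 183, 369.6, 638, 949 and 293 at 10w. Every animal rose by a like factor, so the change of 1.46 ± 0.13 had a small error (adjusted p = 1.19e-08) although the weeks overlapped. Zfp354a, a zinc finger gene known from kidney injury, read 349 to 450.3 at 5w and 698 to 1585 at 10w, rose by 1.43 ± 0.35, and fell short without animal 2 or 4 (adjusted p from 0.0133 to 0.0597 over the 5 fits). Nrep, a neuronal regeneration protein, read 8123, 7768, 10230, 10022 and 8818 at 5w and 5449, 2371, 4853, 3453 and 2713 at 10w, without overlap, and changed by -1.31 ± 0.17 (adjusted p = 7.79e-06).

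The remaining large changes started or ended at low signals, and a bound is given in place of a fold because every array of the lower group read under 100. Cemip, which breaks down hyaluronan, was at least 1.68-fold higher at 10w (log2 change 1.37 ± 0.19, adjusted p = 1.71e-05), and Nol3, an inhibitor of cell death, at least 1.62-fold higher (1.23 ± 0.18, adjusted p = 2.94e-05). Wdr62, a protein of the mitotic spindle, was at least 1.26-fold higher (1.33 ± 0.31, adjusted p = 0.00595). Rsph10b, of the radial spoke of cilia, was at least 1.05-fold higher (1.24 ± 0.28, adjusted p = 0.00518). Car1, carbonic anhydrase 1, abundant in red blood cells, was at least 1.18-fold lower (-1.29 ± 0.23, adjusted p = 0.000476). Rnd1, Prph and Ccdc68 among the rises and Acp3, Nim1k, Ptp4a3 and Cib2 among the falls, with bounds of 1 to 1.96-fold, fell short without 1 or more animals. Ptp4a3 read under 100 on all 10 arrays, with 29.7 to 91.4 at 5w, so its bound of 1 shows no change. Of the 785 genes, 33 had a lower group with all arrays under 100.

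The comparison with MC/PB asked which of these changes differed in size from those without thioacetamide. Both groups drank phenobarbital over the same weeks, and their changes share no array. Besides Pbsn no gene passed the test of the difference (1 of 10910, 0.00917%, with 594, or 5.44%, at an unadjusted p under 0.05), and against the mean of the 5 other phenobarbital groups Pbsn was again the one that passed (485, or 4.45%, at an unadjusted p under 0.05). The typical SE of a difference from MC/PB was 0.18 on the log2 scale, against 0.12 for the change itself, so a difference had to be larger to pass. In MC/PB 662 genes (6.07%) changed between the weeks, 3.58% of genes tested upward and 2.48% downward. In MC/water 144 (1.32%) changed, 0.651% upward and 0.669% downward.

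Of the 403 genes that rose in TAA/PB, 392 had a positive mean change in MC/PB and 185 rose there, with a median of 0.31 against 0.40 in TAA/PB. The 382 that fell had a negative change in MC/PB in 360 cases, 132 of them past the threshold, with a median of -0.28 against -0.45. None passed in the opposite direction. Of the 10125 genes that did not pass in TAA/PB, 65.1% had the same sign in MC/PB. In MC/water 334 of the 403 and 314 of the 382 had the same sign, with 32 and 35 past the threshold. All these groups share the week of sampling and the surgery. The medians in TAA/PB are of genes chosen for passing there, so they were not compared with those of MC/PB by a test.

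**Figure D5:**
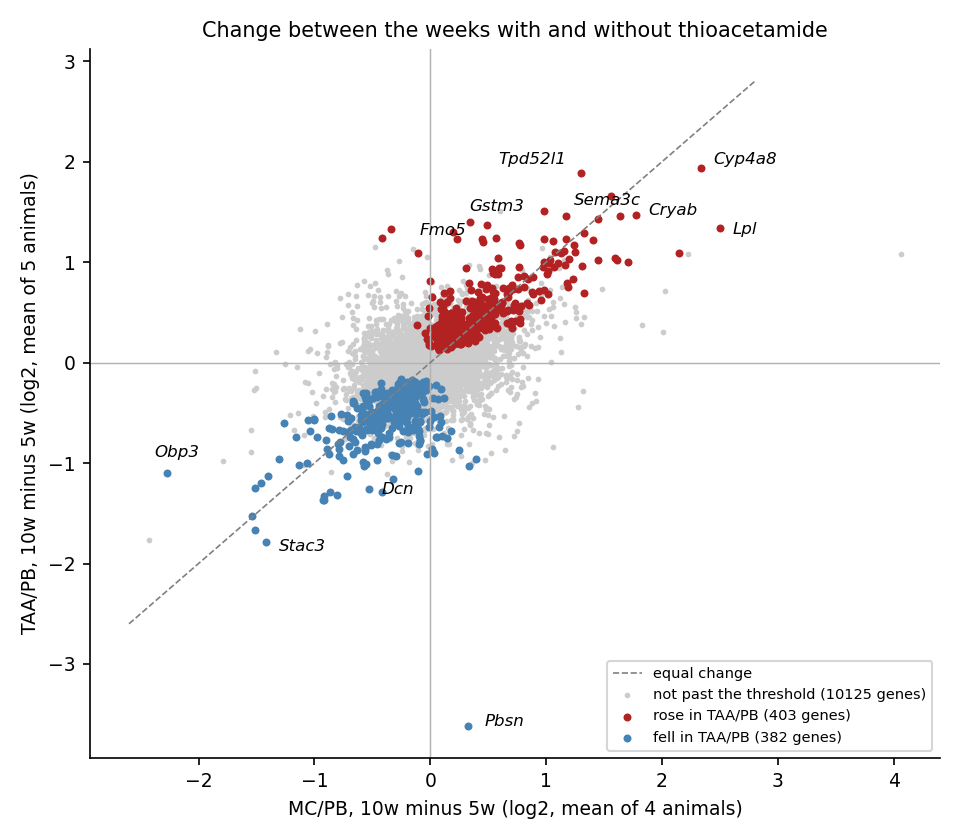
Mean change between the weeks (10w minus 5w, log2 of signal + 25) of 10910 genes in 4 MC/PB animals (horizontal) and 5 TAA/PB animals (vertical), with genes that rose in TAA/PB in red, those that fell in blue and a dashed line of equal change. Pbsn, at 0.32 in MC/PB and -3.61 in TAA/PB, stands apart from the line.

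Tspan15, a tetraspanin that partners the protease ADAM10, and Hap1, a partner of huntingtin, fell in TAA/PB and had a positive mean change in MC/PB. Tspan15 read 205, 226, 150.1, 192 and 191 at 5w and 66.9, 116, 28.9, 169 and 148 at 10w, lower at 10w in 5 of 5 animals, with a change of -0.87 ± 0.17 (adjusted p = 0.0011) against 0.25 ± 0.19 in MC/PB. The difference did not pass (adjusted p = 0.179). Hap1 changed by -0.96 ± 0.26 against 0.40 ± 0.29, its difference did not pass either (adjusted p = 0.711), and its fall in TAA/PB fell short without animal 2, 3 or 4 (adjusted p from 0.0152 to 0.0925 over the 5 fits).

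The animals were also compared over the 662 genes that changed in MC/PB, a choice that did not use the change in TAA/PB, although the fit shared its estimate of the spread over all treatments. Taken in the direction of MC/PB, the median change over these genes was 0.141 in animal 1, 0.337 in animal 2, 0.336 in animal 3, 0.367 in animal 4 and 0.298 in animal 5. Animal 1 was the lowest, with 73.7% of the genes in the MC/PB direction, against 87.9% to 90.9% in the others. The same median was 0.068 to 0.222 in the 4 MC/water animals, 0.288 to 0.384 in DEN3/PB, 0.170 to 0.394 in DEN30/PB, 0.109 to 0.332 in MP/PB and 0.289 to 0.361 in APAP/PB. All 5 TAA/PB animals were above 0. Animal 1 lay within the ranges of MC/water and of MP/PB, where 1 animal was lower. Animals 1 and 3 share the array set, so the set does not separate animal 1 from the other 4.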

How the data were processed

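RNA from 62 rat liver samples was measured on Affymetrix arrays. Each deposited value is a MAS5 signal, a linear intensity of 1 probe set, and the submitters' processing notes name MAS5 5.0 as the tool. Which array model was used, and to what target MAS5 scaled, was not given in the labels read here. The mean of each array without the outer 2% at each end was 500.23 to 500.27. The number of arrays limits the precision.

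Of 31099 probe sets, 57 were controls, 20826 had 1 gene symbol, 436 several and 9780 none. Each of 14217 genes was represented by its brightest probe set on average, and 10910 genes with a signal of at least 100 on at least 4 arrays were tested as log2(signal + 25). limma 3.58.1 in R 4.3.3 fitted all 62 arrays with the animal as a block and a week effect for each treatment (24 residual degrees of freedom), with a trend in the prior variance and Benjamini-Hochberg adjustment. The procedure was tested on simulated data. Tables and figures used Python 3.11.15, pandas 2.3.3, numpy 2.4.6 and matplotlib 3.10.9.

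The pairing comes from the series' design text. Over all genes the deviations of the paired samples from their group means correlated at 0.237 to 0.375 in the 5 TAA/PB animals. Between different animals the range was -0.257 to 0.080, and 0.012 to 0.080 where both were in the same array set. Taking deviations from group means pushes correlations between different animals downward. Of the TAA/PB arrays, 10 of 10 correlated best with their own pair. Named genes were the 15 largest rises and 15 largest falls among genes that passed and moved one way in all 5 animals, up to 8 in each direction for each difference between treatments, up to 4 changed members of each list, and marker genes. Further members of lists, and Lpl, Tspan15, Hap1, Fmo5, Hspa1a, Hspb1 and Mup5, were named after their values were seen. The members and gene lists were chosen with earlier results of these data known. Alternatives changed the offset, the filter, the normalization, the probe sets, the block, the groups fitted and the array sets, and left out each animal.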

Additional observations from a re-analysis of the deposited data

Results flagged for a closer look

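Pbsn changed differently between treatments. Its change in TAA/PB minus that in MC/PB was -3.94, and minus the mean of the 5 other phenobarbital groups -3.18, each past the limma test of the difference. Every MC/PB signal of Pbsn was under 100 at both weeks, so it had little room to fall there. Neither difference passed with no offset, and the first fell short without MC/PB animal 3 (limma adjusted p = 0.0622).

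In 11 of 292 groups of 5 signals (146 genes at 2 weeks) 1 animal lay further from the others than Dixon's limit of 0.71 of the range, and chance alone marks about 1 in 20 groups. Animal 1 accounted for 5 of the 11. At 5w it read 251.6 for Chac1, below 342.1 to 370.8 in the others, and 4893 for Psmd8, above 3724 to 3996. At 10w it read 6810 for Khk, above 4527 to 4968, 3896 for Slco1a1, above 3125 to 3247, and 7972 for Ust5r, above 4487 to 5258. Animal 5 read 570.4 for Dcn at 10w, above 247.2 to 308.7, and at 5w 131.9 for Nim1k, above 81.0 to 90.85, and 29.7 for Ptp4a3, below 68.6 to 91.4. Animal 2 read 212.3 for Igf2bp3 at 10w, below 662.1 to 864.7, and 170.6 for Spp1 at 5w, above 102.5 to 116.6. Animal 4 read 876.3 for Cyp7a1 at 5w, below 1769 to 2037.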

How the results depend on the processing

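The fit without the animal as replicate block, which ignores the pairing, called 193 genes between the weeks, 192 of them among the 785. With the block but only the compared groups, 382 were called. Within array set 1 (animals 1 and 3) the count was 33 and within set 2 (animals 2, 4 and 5) 370, with fewer animals in each. Leaving out 1 TAA/PB animal gave 450 to 856. The other settings (no offset, no filter, a filter on the TAA/PB arrays, quantile normalization, all probe sets, a set-by-week term) gave 678 to 1118. No named gene that passed changed direction under any of these settings. The difference from MC/PB, passed by 1 gene, was passed by 0 with no offset (603 at an unadjusted p under 0.05), without the replicate block (261) and within set 2 (487), by 2 over all probe sets, by 1 within set 1 which was not Pbsn, and by 0 to 2 when 1 animal was left out, 0 without MC/PB animal 3 (572). For Pbsn it was -3.55 (adjusted p = 0.402) within set 1, -4.23 (0.752) within set 2 and -3.94 (0.929) without the block. The difference from the 5 other phenobarbital groups was passed by 0 genes with no offset (489 at an unadjusted p under 0.05), without the block (237), within set 1 (584) and within set 2 (549), and by 1 to 2 without 1 TAA/PB animal, 2 without animal 4. The heat shock list had 5 members that rose without the block, 2 within set 1 and 7 within set 2, all with a median above 0. The male-biased list had 3 that fell without the block, 1 within set 1 and 9 within set 2. All these counts are limma's. Whether signals under 100 lie above background is not given by the deposited values used here, which limits Pbsn in the comparison groups.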
